A study of Drosophila melanogaster with 4 samples.

Results

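The regions described are the binding peaks of cap'n collar (CNC) on 3L, the left arm of the third chromosome of Drosophila melanogaster. They are every peak that the deposited list places on the sequence named 3L, which is 308 of 1684 peaks (18.3%). The rule uses the sequence name alone, not a length or a score. The list came from a ChIP-seq experiment, in which crosslinked chromatin is pulled down with an antibody and the recovered DNA is sequenced. The series holds 2 ChIP libraries and 2 libraries of input DNA, which had no antibody step, all from whole adult females aged 2 to 3 days. The flies were of the strain Y cn bw sp, and ChIP and input flies shared 1 genotype, given by the labels with the marker alleles y[1], cn[1], bw[1] and sp[1], with oc[R3.2], lab[R4.2] and CG33964[R4.2], and with Rh6[1], GstD5[1], MstProx[1], LysC[1], Gr22d[1] and Gr22b[1]. No fly lacking CNC is among the samples analysed here. A polyclonal rabbit antibody made against a stretch of the CNC protein was used.

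CNC belongs to the basic leucine zipper family of transcription factors, and its vertebrate relatives include NRF2. Its long form pairs with a small Maf protein to bind antioxidant response elements, and it is held in check by Keap1 until oxidative or chemical stress releases it. It is known for control of antioxidant and detoxification genes, and other forms pattern the head of the embryo. On 3L, coordinates count from the telomere towards the centromere, next to which lies heterochromatin.

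Every value below describes 1 list that the authors deposited for the whole series. The list has no value for a single library, so no replicate error and no read depth can be given. Peaks are not replicates, and with 1 arm set against 4 an exact permutation test over arms cannot give a p under 0.2, so differences between arms are given side by side and were not tested. Intervals in brackets are exact 95% binomial intervals, of a share or, through the ranks of the peaks, of a median. Such intervals reflect counting error alone and treat each peak as independent of the rest. Coordinates are those of FlyBase release 5. No annotation or genome of that release was used, so no gene is named at any peak.

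CNC peaks left less of 3L covered than of any other major arm. The 308 peaks covered 168 kb in all, or 0.73% of the 23.1 Mb between the start of the first peak and the end of the last, a distance called the span of the arm below. On the other 4 major arms together, 2L, 2R, 3R and X, 1333 peaks covered 0.93% of their spans, and single arms ran from 0.86% on 2L to 1.11% on 2R. The coverage of 3L was 0.84 of that of 2L, 0.83 of 3R, 0.78 of X and 0.66 of 2R. Peak number differed less than coverage. There were 13.4 peaks per Mb on 3L against 14.8 per Mb on the other arms, a ratio of 0.90 (95% interval 0.79 to 1.02), and of the 5 arms 2L alone was lower, at 13.3 per Mb.

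Long peaks made up most of the difference in coverage. Peaks over 1000 bp numbered 33 on 3L, or 10.7% (95% interval 7.49 to 14.7%), and 197 on the other arms, or 14.8% (12.9 to 16.8%). They covered 2031 bases per Mb of span on 3L and 3539 on the other arms, and this class alone held 72.5% of the 2082 bases per Mb by which 3L fell short. Peaks of 500 to 1000 bp held another 27.8%, with 2630 bases per Mb on 3L and 3208 elsewhere. Short peaks differed little in density. Those of 300 to under 500 bp stood at 4.60 per Mb on 3L against 4.48 on the other arms, and those under 300 bp at 3.47 against 3.54 per Mb. The median peak was 418.5 bp long on 3L (95% interval 386 to 445 bp) and 460 bp on the other arms (437 to 485 bp), and 3L had the lowest median of the 5 arms. The mean was 544 bp on 3L against 630 bp.

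**Figure D1:**
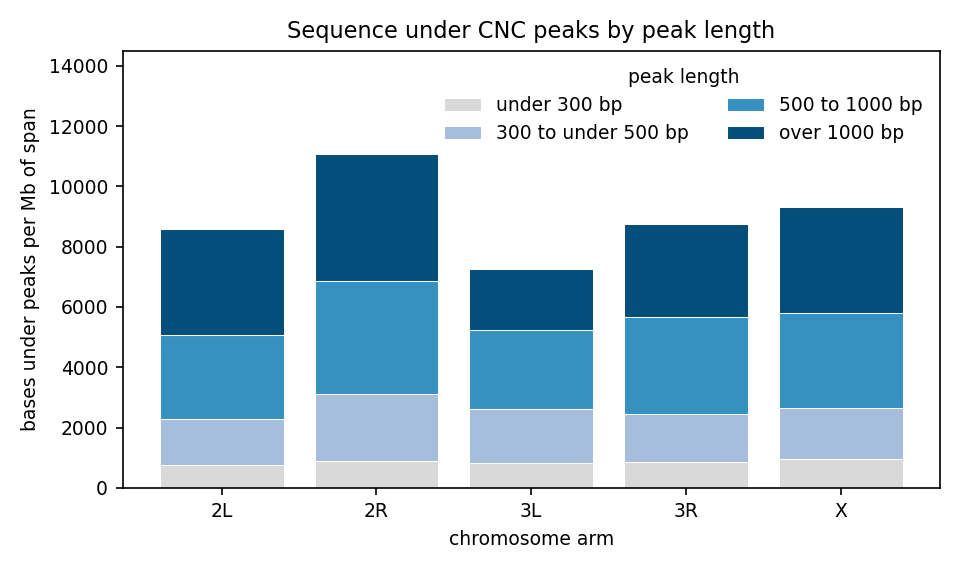
Bases under CNC peaks per Mb of span on each of the 5 major arms (y axis), split by peak length, with 1 bar per arm and no error bars because the list has no replicates. The bar of 3L is the lowest, and its part from peaks over 1000 bp, 2031 bases per Mb, is the smallest of the 5, while the parts from peaks under 500 bp lie within the range of the other 4 bars.

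The lengths on 3L ran from 201 to 3849 bp, with an interquartile range of 292 to 658 bp. The longest peak, at 3942735 to 3946583, stood apart from the next, a peak of 2303 bp at 9413504 to 9415806. After these came peaks of 1814 bp (21529837 to 21531650), 1745 bp (17000752 to 17002496) and 1739 bp (14992162 to 14993900). The minimum of 201 bp, which was also the minimum on each other arm, was reached by 2 peaks, one of them at 16631110 to 16631310. The 81 longest peaks, 26.3% of those on 3L, held 50% of the covered sequence.

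Scores on 3L were mostly low, as on the other arms. The score is the number that the authors' peak caller gave to each peak. Which statistic it is, is not given in the sources used here, so scores are ranked and counted and never divided. The median on 3L was 19.2 (95% interval 17.2 to 21.1) and the interquartile range 12.3 to 39.1, with a lowest value of 7.78. The other arms had a median of 20.3 (19.2 to 21.6), and X alone had a lower median than 3L, at 19.1. A score up to 20 was held by 160 of the 308 peaks (51.9%, against 49.6% on the other arms), of which 40 lay at or under 10. Scores between 50 and 100 were held by 30 peaks (9.74%, against 11.6% on the other arms), and scores between 100 and 200 by 27 (8.77%, against 7.73%). Above 200 there were 2 peaks on 3L (0.65%, 95% interval 0.08 to 2.33%) and 46 elsewhere (3.45%, 2.54 to 4.58%). The highest score on 3L, 215.58, was the lowest maximum of the 5 arms. The highest scores of the other arms ran from 378.38 to 449.55.

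The site of highest score on 3L lay near the telomere. It spanned 1540 bp at 1335195 to 1336734 and scored 215.58, which was rank 41 in the whole list. A smaller pair of peaks lay 2945 bp before it, at 1331003 to 1331479 and 1331525 to 1332249. They scored 13.56 and 34.02 and stood 45 bp apart, the smallest gap on the arm. The second site, 1739 bp at 14992162 to 14993900, scored 206.94 and had no neighbour within 21.4 kb. The next sites lay towards the centromere. The third, at 21529837 to 21531650, scored 194.9, and the fourth, at 22863846 to 22865474, scored 180.51 as one of the last 3 peaks of the arm. The fifth site, at 10982353 to 10983612 in the middle of the arm, scored 175.9 and was the most isolated of the 12 highest, with 53.4 kb to its nearest neighbour.

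The next 7 sites scored between 154.25 and 175.11 and ran in length from 476 to 3849 bp. A 1393 bp peak at 871609 to 873001 scored 175.11, and the longest peak of the arm, at 3942735 to 3946583, scored 173.63. A 1408 bp peak at 19907682 to 19909089 scored 173.12, and a 918 bp peak at 12258797 to 12259714 scored 167.47. The peak at 5758541 to 5759990 scored 162.21 and began a run of 3 peaks, the other two scoring 47.08 and 44.39. The eleventh site was narrow, at 476 bp (10356908 to 10357383), and scored 159.87. It was the shortest of the 178 peaks of the whole list that scored above 100, the next being 577 bp. The twelfth, at 3303584 to 3304401, scored 154.25 and was followed after 282 bp by a peak of 12.41. Of these 12 sites, 6 had no other peak within 5 kb.

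Longer peaks had higher scores on 3L, with exceptions at both ends. Spearman's rho across the 308 peaks was 0.80, against 0.82 across those of the other arms. The same caller set the edges and the score of a peak, so these are not separate measures. Of the 12 longest peaks, 6 were among the 12 of highest score. The peak of 1745 bp at 17000752 to 17002496 scored only 41.55. It lay in a row of 4 peaks, where the next one, of 985 bp, scored 116.63. The 2303 bp peak scored 80.08 and was 37th on the arm. The narrow site of 159.87 was the opposite case, 11th by score and 128th by length.

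**Figure D2:**
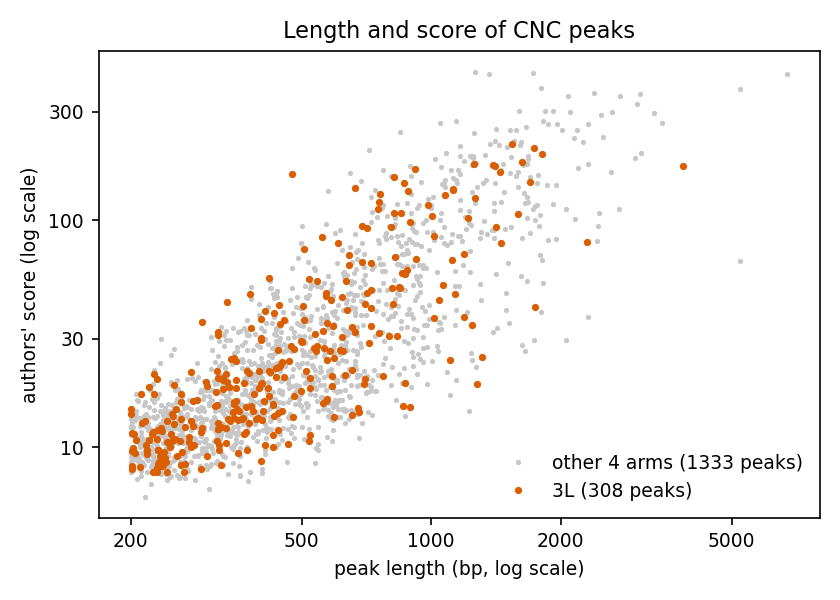
Authors' score (y axis, log scale) against peak length in bp (x axis, log scale), with 1 point per peak for 3L (308) and for the other 4 major arms (1333). Points on 3L lie within the cloud of the other arms up to a score of 215.58, and the 476 bp peak that scored 159.87 stands at its upper left edge.

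With all 308 peaks counted, weak ones included, peaks were more frequent in the part of 3L next to the telomere. The span was divided into 5 equal parts of 4.61 Mb. The first part held 79 peaks (25.6%, 95% interval 20.9 to 30.9%), the second 64, the third 55, the fourth 59 and the last, next to the centromere, 51 (16.6%, 12.6 to 21.2%). Covered sequence fell from 0.94% of the first part to 0.59% of the last, and lay between 0.68 and 0.72% in the 3 between. Of the 29 peaks that scored above 100, 11 lay in the first part and 3 in the last, though those 3 included the sites of 194.9 and 180.51. The third part had the highest median score, 28.0 (17.2 to 47.3), and its interval overlapped those of the other parts, whose medians ran from 18.0 to 20.3. On 2L, which is numbered from the telomere too, the first part held 67 peaks and the last 44, but the second held the most, 76. The fullest part held 1.55 times as many peaks as the emptiest on 3L. That ratio was 1.14 on X, 1.60 on 2R, 1.73 on 2L and 2.37 on 3R. The fullest part was the second on 2R, with 80 peaks, and the fourth on 3R, with 109. On 2R and 3R, numbered from the centromere, the fewest peaks lay in the last part, at the telomere, with 50 and 46, and on X the first and last parts held 62 and 64.

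In steps of 1 Mb counted from the first peak, the number of peaks ran from 3 to 27, with a median of 12 over the 23 full steps. The ninth step, 8023063 to 9023062, had the most peaks, with 11.4 kb covered and a highest score of 111.9. The fourth step, 3023063 to 4023062, had fewer peaks, 21, but the most covered sequence, 15.6 kb. It held the longest peak of the arm and 6 of the 29 peaks above 100. A pair of these 6, scoring 154.25 and 147.16, were the closest high-scoring peaks on 3L, with centres 22.9 kb apart. The fourteenth step, 13023063 to 14023062, had the fewest peaks and 1.51 kb covered. A peak above 100 was present in 17 of the 23 steps.

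**Figure D3:**
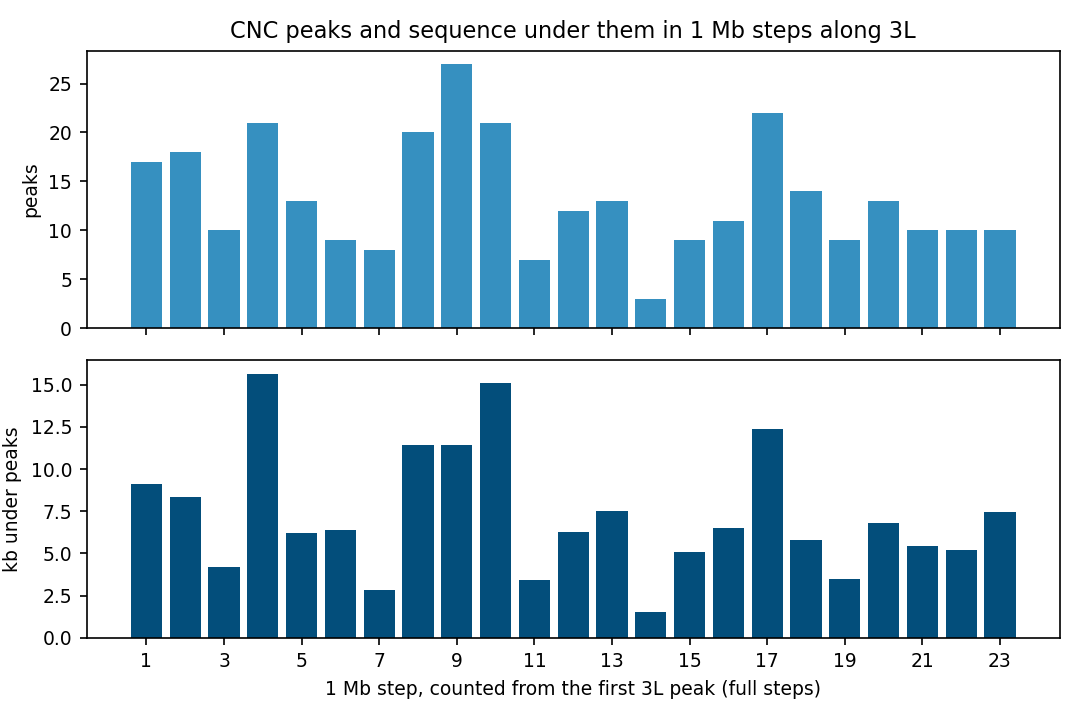
Number of CNC peaks (upper panel) and kb under peaks (lower panel) in each full 1 Mb step along 3L, counted from the first peak (x axis). The ninth step has the most peaks, 27, the fourth has the most sequence under peaks, 15.6 kb, and the fourteenth is the lowest in both panels.

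The densest stretches of 3L lay close together. The 3 windows of 100 kb with the most peaks all fell between 7766671 and 9502646, a stretch of 1.74 Mb that made up 7.53% of the span and held 57 peaks, 18.5% of the arm. Inside it was also an empty stretch of 476 kb, from 8852655 to 9328676. The first window, at 7766671 to 7859996, held 11 peaks with scores from 8.41 to 129.33. It included 3 peaks above 100, which scored 106.66, 120.79 and 129.33. The second, at 9412163 to 9502646, also held 11 peaks and had more sequence covered, 8.86 kb against 6.25 kb, though only 1 of its peaks, at 134.63, passed 100. The third window, at 8673244 to 8770692, was of another kind, with 9 peaks of 232 to 593 bp and a highest score of 35.58. The densest 100 kb of the other arms held 17 peaks on 2L, 16 on 2R, 12 on 3R and 10 on X.

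A sparse stretch lay just past the middle of the arm. Between 12882824 and 14418617, a distance of 1.54 Mb, there were 6 peaks, or 3.91 per Mb against 32.8 per Mb in the dense stretch. They covered 0.20% of it, and the highest scored 64.45. This stretch contained 3 of the 10 longest empty stretches of 3L and the 2 peaks at 13256399 to 13256723 and 13471639 to 13472361, which lay 215 kb from each other and farther from any other peak. The most isolated peak of the arm, at 14418618 to 14418866 with a score of 11.48, lay at its end, 333 kb from its nearest neighbour. The longest run of 3L without a peak above 100 surrounded it, from 12783615 to 14992161, and ended at the site of second highest score. Its 12 peaks had a median score of 13.8. Measured between centres, this run was 2.21 Mb long, and the longest such runs on the other arms measured from 1.47 to 3.53 Mb.

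**Figure D4:**
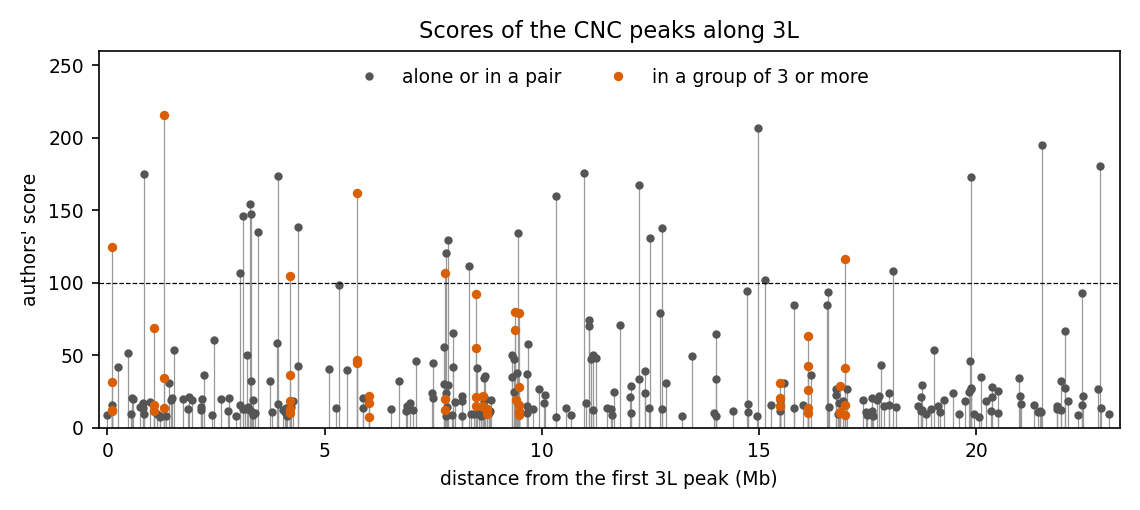
Authors' score of each of the 308 CNC peaks (y axis) against its distance in Mb from the first 3L peak (x axis), with orange points for peaks in groups of 3 or more and a dashed line at a score of 100. Peaks crowd between 7.74 and 9.48 Mb, thin out after 12.9 Mb, and include no orange point over the last 4.61 Mb.

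The longest empty stretch on 3L was 711 kb, from 4416190 to 5127356, between peaks that scored 42.74 and 40.24. Next came 506 kb (18173123 to 18679130), 504 kb (13472362 to 13976021), 501 kb (6044533 to 6545713) and 478 kb (20523864 to 21002233). Of the 307 gaps between neighbours, 33 were longer than 200 kb. Together these 33 took up 45.8% of the span, against 47.1% for such gaps on the other arms. In bins of 100 kb, 88 of 230 were empty on 3L (38.3%) and 39.8% on the other arms. The first peak of 3L began at 23063 and scored 8.55, and the last ended at 23084288 and scored 9.41. The length of the arm past that point was not used, so the outer ends are not counted as empty.

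Gaps under 10 kb were a smaller share on 3L than on the other arms. Between the centres of neighbours the median distance was 33.6 kb (95% interval 23.1 to 44.8 kb) on 3L and 22.6 kb (19.2 to 26.6 kb) on the other arms, where single arms ran from 21.5 to 24.5 kb. The intervals overlapped. The mean gap between edges was 74.6 kb against 67.0 kb. Gaps under 10 kb made up 30.3% of the 307 on 3L (95% interval 25.2 to 35.8%) and 38.4% of the 1329 elsewhere (35.8 to 41.0%), and 3L had the lowest share of the 5 arms. The limit of 10 kb was chosen after the gaps were seen. For gaps under 5 kb the shares were 25.1% (20.3 to 30.3%) and 29.3% (26.8 to 31.8%). Gaps over 200 kb made up 10.7% on 3L and 9.78% elsewhere.

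**Figure D5:**
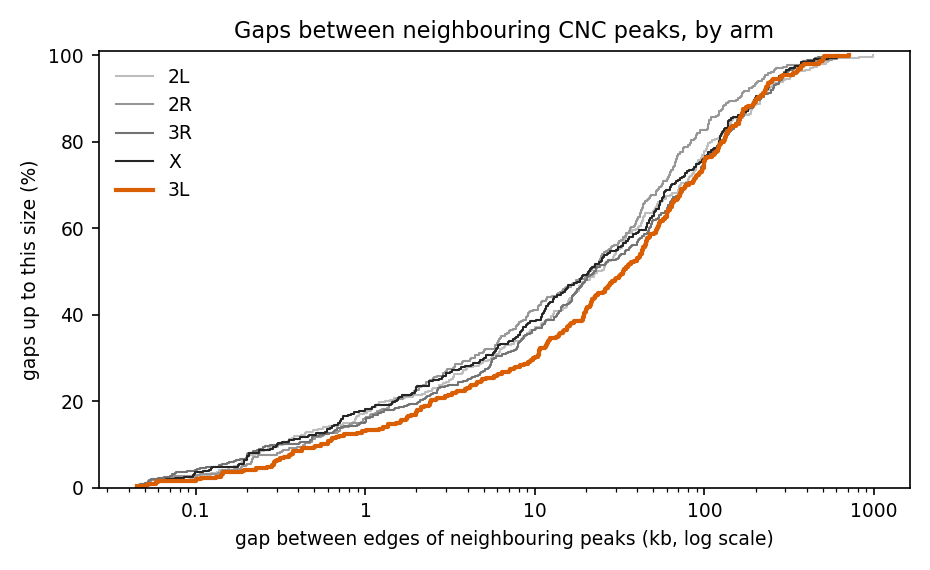
Share of gaps between neighbouring peaks up to each size (y axis, percent) against gap size in kb (x axis, log scale), with 1 line per arm. The line of 3L runs below the others around 10 kb, where it stands at 30.3% and the other arms at 36.8 to 41.2%, and comes close to those of 2L, 3R and X above 100 kb.

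Most CNC peaks on 3L stood alone. With peaks joined into a group where their edges were less than 5 kb apart, 181 of the 308 (58.8%, 95% interval 53.0 to 64.3%) had no partner, against 53.4% (50.7 to 56.1%) on the other arms. Another 68 formed 34 pairs, and 59 peaks (19.2%) lay in 16 groups of 3 or more, against 24.1% on the other arms. The groups were 9 of 3 peaks, 4 of 4, 2 of 5 and 1 of 6, and their widths ran from 1.64 to 11.0 kb. None lay in the part of the span next to the centromere, where 51 of the peaks were found. That absence rests on the 5 kb limit. There, 3 peaks between 19894530 and 19909089 had gaps of 5698 and 6351 bp and would form a group with a limit of 10 kb. Peaks that stood alone had a median score of 18.3 (15.8 to 20.5), those in pairs 21.8 (16.3 to 29.6) and those in larger groups 19.3 (15.0 to 28.8), and these intervals overlapped.

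Pairs of high scores on both sides were few on 3L and on the other arms, as were high scores themselves. Of all peaks, 19.2% on 3L and 22.7% on the other arms scored above 50. At such shares, members with unrelated scores would also give few pairs with both above 50. Both members scored above 50 in 0 of the 34 pairs on 3L, while 16 pairs had 1 such member and 18 had none. Taking 3 counts as the limit of a count of 0 allows a share of up to 8.82%. This is an approximate 1-sided limit, narrower than the exact intervals given elsewhere. On the other arms both members passed 50 in 7 of 150 pairs, of which X had 0 of 43, 2R 1 of 32, 2L 2 of 28 and 3R 4 of 47. The median of the higher scores in the 3L pairs was 41.7 and of the lower scores 13.2, and the higher-scoring member was also the longer in 30 of the 34 pairs. The largest group had 6 peaks at 9491670 to 9502646. Its second peak, of 1452 bp, scored 79.45, and the others scored between 8.58 and 28.03. A group of 5 at 4219743 to 4229037 held a peak of 104.79 in its middle, and its other members scored 9.9 to 36.28. The other group of 5, at 16149304 to 16154788, had closer scores, from 10.53 to 63.4, and gaps as small as 52 bp. The most tightly filled group was a run of 3 at 7800887 to 7803309, where a 1594 bp peak that scored 106.66 had a smaller peak 143 bp before it and another 131 bp after it, so that 88.7% of the group was covered. Whether such close peaks are separate sites cannot be read from a list without summits.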

How the data were processed

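Per the labels, 2 ChIP and 2 input libraries were made from adult females, grouped here by their titles. Nothing says that replicates came from separate collections of flies. Per the submitters' processing notes, the tools were BWA, MACS2 and CASAVA (1.7.0.2, 1.7.0.3) and the build was BDGP5. Per the file headers, the build is FlyBase release 5 and peaks came from MACS. The authors deposited a start, an end and 1 score per peak. Not given in the sources used here are the score's statistic, the threshold, which would set how many weak peaks are listed, and how inputs and replicates entered the calling.

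Lengths, gaps (bases between edges), centres (midpoints), groups and windows were computed with pandas 2.3.3, numpy 2.4.6 and scipy 1.17.1 in Python 3.11.15, plotted with matplotlib 3.10.9, and checked on simulated peaks. No peaks overlapped. The peaks named are the first and last, the 12 of highest score, the 5 longest, the shortest, the 3 most isolated, and those of the 3 densest windows, the 5 longest empty stretches and the groups of 5 or more. Other named peaks and stretches were picked after their values were seen. The region and the measures were chosen with earlier results of these data known. Alternatives were joining of neighbours under 1 kb apart, the 842 top-scoring peaks, spans from position 1, other windows and gaps, and other sets of arms. The gene table at hand was of release 6 and was not joined to the peaks.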

Additional observations from a re-analysis of the deposited data

Results flagged for a closer look

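The list also held 43 peaks on sequences outside the 5 major arms, which enter none of the comparisons above and are given because they were not otherwise used. Whether they reflect CNC binding was not tested. They lay on chromosome 4 (5 peaks), on U (6), on Uextra (28), on 2LHet (1), on 2RHet (2) and on XHet (1). The list had 0 rows for 3LHet, the assembled heterochromatin of 3L, and also 0 for 3RHet.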

How the results depend on the processing

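No paired analysis was possible because no column gives a single library, so leaving out a replicate was not possible either. The density ratio of 3L to the other arms stayed between 0.87 and 0.95 in every alternative run. The part of the span next to the telomere held 25.6% of the 3L peaks as deposited and 26.9% after joining. Among the 842 highest-scoring peaks it held 22.7% of those on 3L. In that set the third part held as many peaks as the first, so the first part no longer stood out. The coverage ratio, 0.777 as deposited, was 0.728 among the 842 highest-scoring peaks, 0.772 after joining neighbours under 1 kb apart and 0.797 where spans began at position 1. With choices made after seeing the data, it was 0.794 without the 3 peaks over 5000 bp, none of them on 3L, and 0.819 without 2R. Coverage and median length on 3L stayed the lowest of the 5 arms, and its median spacing the widest, in the 842 highest-scoring peaks and with peaks joined. Keeping the 842 highest-scoring peaks, 150 of them on 3L, by construction raised the median length on 3L to 635 bp, the median score to 40.7 and the spacing to 99.6 kb. The longest empty stretch was then 721 kb, between the peaks ending at 14031206 and starting at 14752227. This was another stretch than the longest one of the full list, 711 kb, which kept its length. With these peaks alone there were 3 groups of 3 or more in place of 16, and a rho of 0.696. Joining raised the spacing to 45.6 kb and left 5 groups and a rho of 0.790. The densest window held 8 peaks in both. How depth limits weak sites is unknown, since no reads were counted.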
